A study of Mus musculus with 6 samples.

Results

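The genes described here build the hair shaft: the hair keratins, the keratin-associated proteins (Krtap), the desmosomal cadherin gene Dsg4 and the calcium-binding protein gene S100a3. They were taken by symbol, as every row beginning with Krtap together with Krt31, Krt32, Krt33a, Krt33b, Krt34, Krt35, Krt36, Krt39, Krt40, Krt81, Krt82, Krt83, Krt84, Krt85, Krt86, Dsg4 and S100a3. The rule found 69 of the 24014 genes in the tables. Of these, 9 are type I (acidic) hair keratins, 6 are type II (basic) hair keratins and 52 are Krtap genes in 25 numbered families.

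RNA was sequenced from epidermal cells of wild type mouse back skin at postnatal day 2. In 3 libraries, called blister, a suction blister had been raised by negative pressure and was healing. The other 3 libraries, called control, came from control skin of the same age. No transgene or further agent is named for either group. Trypsin freed the epidermis, which was minced and filtered, so hair follicle cells that came away with it are part of each library. Whether replicates came from different animals is not in the labels, so the p-values measure the spread between libraries alone, and that spread may be technical.

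As background, a hair shaft is made by cells that leave the matrix at the base of the follicle and harden as they move up. A type I and a type II hair keratin pair into filaments, and Krtap proteins fill the space between filaments and bind them through disulfide bonds. The genes come on in order: Krt35 and Krt85 in the matrix and lower shaft, then the cortex keratins, then most Krtap genes. Krtap proteins are grouped by composition into high-sulfur, ultra-high-sulfur and high glycine-tyrosine kinds. In the newborn mouse the first coat is still being built, so follicles at several stages lie in the same skin.

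Total counts ran from 7600567 in blister 2 to 15912863 in control 3, and blister 2 was the shallowest library. Levels are given in CPM, a gene's count relative to the total of its library after TMM adjustment. Markers of the interfollicular epidermis (Krt5, Krt14, Krt1, Krt10, Lor and Krtdap) were present in every library. They summed to 188530, 102110 and 112560 CPM in blister 1, 2 and 3, and to 63448, 87958 and 61214 CPM in control 1, 2 and 3. Every blister sum lay above every control sum. Within the list, Lor went the other way, at 1854, 1165 and 2142 CPM in blister against 3361, 4472 and 2557 CPM in control. Krt1 and Krt10 were lower in blister 2 than in control 2. In the fit over 14028 genes, 1626 were lower and 1367 higher in blister at an adjusted p under 0.05.

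Promoter sequences show what these genes have in common ahead of their start sites. RefSeq windows on GRCm38.p6, from 250 bases before to 50 after each annotated start, were matched by symbol to 57 of the 69 genes, giving 60 promoters because S100a3 has 4. The forward motif TATAAA, the core of the TATA box, was in 45 of 60 (75.0%), against 8.32% of all 32851 windows of that length. It was in 39 of 47 Krtap promoters (83.0%) and 6 of the other 13 (46.2%). A copy beginning 40 to 20 bases before the start, where TATA boxes lie, was in 32 of 60 (53.3%), against 1.99% of all windows. Some Krtap windows are much alike, such as those of Krtap31-1 and Krtap31-2, and S100a3 gives 4 of the other 13. The promoters are therefore not all separate instances.

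**Figure D1:**
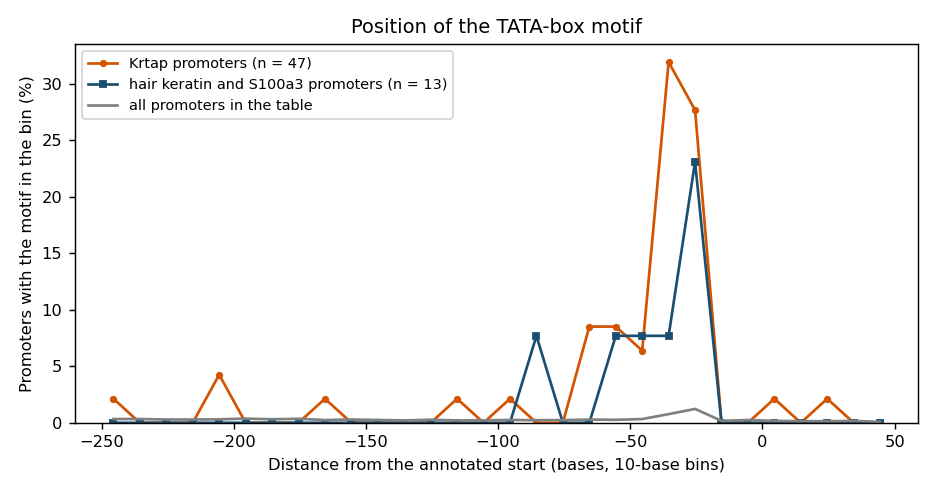
Share of promoters (%) holding the forward TATA-box motif in each 10-base bin, against distance from the annotated start in bases, for 47 Krtap promoters, 13 hair keratin and S100a3 promoters, and all 32851 promoters. Both gene groups peak between 40 and 20 bases before the start, where the line for all promoters stays near 1%.

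CTTTGA, a core of the site bound by LEF1 and TCF proteins, was in 20 of 60 promoters on either strand (33.3%), against 16.0% of all windows. ACGC, the core bound by FOXN1, was on either strand in 20 of 60 (33.3%), against 55.3%. After the values were seen, it was noticed that forward CTTTGA began in the 25 bases from 250 to 226 before the start in 8 of 60 promoters (13.3%), against 0.731% of all windows. These 8 were Krt31, Krt32, Krt33b, Krt34, Krtap1-5, Krtap11-1, Krtap16-3 and Krtap19-3. Krt31, Krt33b and Krt34 are neighbouring genes of similar sequence, so they do not count as separate instances. A match to letters is a description of these windows and not a bound site. The 7 windows below are those of the 8 that also hold TATAAA, which Krtap19-3 does not. In Krt33b it begins 47 bases before the start, outside the range of 40 to 20 used above. Each is the 250 bases before the start, read toward the gene, with TATAAA and CTTTGA in capitals.
Krt31, chr11:100050552-100050801, minus strand: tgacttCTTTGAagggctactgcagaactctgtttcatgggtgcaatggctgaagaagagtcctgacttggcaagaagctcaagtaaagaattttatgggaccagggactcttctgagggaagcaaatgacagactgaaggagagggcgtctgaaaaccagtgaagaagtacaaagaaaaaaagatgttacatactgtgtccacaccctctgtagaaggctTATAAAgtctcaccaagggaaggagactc
Krt32, chr11:100088270-100088519, minus strand: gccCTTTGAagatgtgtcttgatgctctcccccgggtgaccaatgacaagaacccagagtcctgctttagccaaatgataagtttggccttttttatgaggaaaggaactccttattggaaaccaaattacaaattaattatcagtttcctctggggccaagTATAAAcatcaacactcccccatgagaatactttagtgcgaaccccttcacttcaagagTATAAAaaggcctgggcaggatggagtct
Krt33b, chr11:100029869-100030118, minus strand: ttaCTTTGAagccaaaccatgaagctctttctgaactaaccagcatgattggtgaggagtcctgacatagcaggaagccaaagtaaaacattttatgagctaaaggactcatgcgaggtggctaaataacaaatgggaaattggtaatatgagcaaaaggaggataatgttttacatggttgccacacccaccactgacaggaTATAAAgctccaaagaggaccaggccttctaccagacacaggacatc
Krt34, chr11:100041555-100041804, minus strand: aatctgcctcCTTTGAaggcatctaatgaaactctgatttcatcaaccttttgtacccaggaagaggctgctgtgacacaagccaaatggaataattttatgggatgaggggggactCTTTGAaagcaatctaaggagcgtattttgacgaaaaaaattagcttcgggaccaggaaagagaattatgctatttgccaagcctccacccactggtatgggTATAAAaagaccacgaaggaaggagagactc
Krtap1-5, chr11:99581017-99581266, minus strand: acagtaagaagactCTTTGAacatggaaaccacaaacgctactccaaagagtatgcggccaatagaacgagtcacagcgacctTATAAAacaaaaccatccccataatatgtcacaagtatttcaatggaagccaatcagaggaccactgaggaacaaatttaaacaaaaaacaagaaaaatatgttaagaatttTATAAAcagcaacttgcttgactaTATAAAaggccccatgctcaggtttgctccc
Krtap11-1, chr16:89571184-89571433, minus strand: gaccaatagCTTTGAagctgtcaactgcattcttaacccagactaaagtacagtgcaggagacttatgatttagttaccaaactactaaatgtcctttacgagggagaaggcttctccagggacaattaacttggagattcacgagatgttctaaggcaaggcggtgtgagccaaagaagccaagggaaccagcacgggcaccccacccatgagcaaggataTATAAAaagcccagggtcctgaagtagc
Krtap16-3, chr16:88962874-88963123, minus strand: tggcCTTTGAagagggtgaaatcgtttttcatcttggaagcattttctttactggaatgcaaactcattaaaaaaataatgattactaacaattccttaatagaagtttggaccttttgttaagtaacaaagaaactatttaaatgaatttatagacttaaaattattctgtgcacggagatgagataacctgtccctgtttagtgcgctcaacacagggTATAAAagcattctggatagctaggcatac

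The next 6 windows are the 100 bases before the start, with TATAAA in capitals where present. They set a Krtap gene called lower in blister (Krtap17-1) beside Krtap genes that were not called (Krtap8-1, Krtap3-1, Krtap5-2) and beside 2 keratin genes called lower whose windows hold no TATAAA (Krt36 and Krt82).
Krtap17-1, chr11:99993995-99994094, minus strand: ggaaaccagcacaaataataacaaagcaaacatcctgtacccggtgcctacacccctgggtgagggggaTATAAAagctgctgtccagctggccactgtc
Krtap8-1, chr16:89487953-89488052, minus strand: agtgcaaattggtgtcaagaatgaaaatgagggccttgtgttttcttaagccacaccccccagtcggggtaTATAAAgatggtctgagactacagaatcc
Krtap3-1, chr11:99566631-99566730, minus strand: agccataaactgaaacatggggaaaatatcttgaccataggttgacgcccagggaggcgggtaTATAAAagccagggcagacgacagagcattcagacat
Krtap5-2, chr7:142176006-142176105, minus strand: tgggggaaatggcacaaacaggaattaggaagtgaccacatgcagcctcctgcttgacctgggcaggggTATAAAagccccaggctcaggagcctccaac
Krt36, chr11:100105627-100105726, minus strand: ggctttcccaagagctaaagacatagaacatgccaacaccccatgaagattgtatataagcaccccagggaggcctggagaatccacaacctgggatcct
Krt82, chr15:101550660-101550759, minus strand: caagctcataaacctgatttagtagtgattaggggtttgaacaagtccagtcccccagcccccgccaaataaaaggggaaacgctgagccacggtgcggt
The exact letters TATAAA were thus present in genes that were called and in genes that were not, and absent from some that were called. Variants of the TATA box were not searched for, so a window without these letters may still hold one.

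Taken as sums, hair keratins and Krtap genes both had lower mean levels in the blister libraries. Summed over the 69 genes, the level was 101, 33.9 and 251 CPM in blister 1, 2 and 3, and 1018, 638 and 566 CPM in control 1, 2 and 3. No blister library reached a control library, and the mean was 5.76-fold lower. In RNA from a mixed tissue, fewer hair shaft cells and less of these RNAs per cell cannot be told apart. The 15 keratins together were 6.91-fold lower (66.8 ± 58.4 against 462 ± 137 CPM, SD, n = 3), and the 52 Krtap genes 3.56-fold lower (47.98 ± 41.1 against 171 ± 75.2 CPM, SD, n = 3). Without Krt35 and Krt85 the keratins were 4.36-fold lower. The order of keratins and Krtap genes was not the same in every library: in blister 2 the control mean was 19.1-fold higher for the keratins and 26.4-fold higher for the Krtap genes. The difference between them was not tested.

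At an adjusted p under 0.05 (edgeR, quasi-likelihood F-test over the 14028 genes), 13 of the 69 fell and 0 rose. The genes that fell were Krt31, Krt32, Krt33a, Krt35, Krt36, Krt81, Krt82, Krt83, Krt85, Krt86, S100a3, Krtap11-1 and Krtap17-1. Among all genes tested, 11.6% fell and 9.74% rose. The test covered 48 of the 69, of which 34 passed the low-count filter through the control libraries and not through the blister libraries, so the number that fell among those tested is a description. Their median log2 fold change was -1.81, against 0.00 for all genes tested. Of the 69, 65 had a count, and in 24 of these every blister library lay below every control library (36.9%, against 18.4% of all genes with a count). In 0 of the 65 did every blister library lie above, against 16.1% of all genes.

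The result rests in part on single libraries. Calls among these genes numbered 2 without blister 1, 8 without blister 2, 26 without blister 3, 2 without control 1, 3 without control 2 and 12 without control 3. Over all genes, the same fits gave 1028, 2073, 4061, 785, 1299 and 1315 calls in that order, against 2993 with all 6 libraries. The number of calls thus moved across the whole table as well. Krt32 and Krt86 were called in 6 of 6 of these fits.

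Krt35 and Krt85, the type I and type II keratins that open the shaft programme, had the largest differences of the keratins. Krt35 was at 1.29, 1.79 and 37.9 CPM in the blister libraries and at 230, 127 and 194 CPM in the control libraries. Its log2 fold change was -3.70 ± 1.06 (SE; adjusted p = 0.045, edgeR), a mean 13.5-fold lower. Blister 3 stood far above blister 1 and 2 but below every control. Krt85 was at 0.551, 0.688 and 18.8 CPM against 98.7, 53.1 and 73.1 CPM, a log2 fold change of -3.41 ± 0.995 (SE; adjusted p = 0.047, edgeR). The pattern over libraries was that of Krt35. Together the pair was 141-fold below the control mean in blister 1, 105-fold below in blister 2 and 4.57-fold below in blister 3. In the fits that left out 1 library, both genes were called only without blister 3; the largest adjusted p, without control 1, was 0.11 for Krt35 and 0.13 for Krt85. DESeq2 gave an adjusted p of 0.028 for Krt35 and 0.054 for Krt85.

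**Figure D2:**
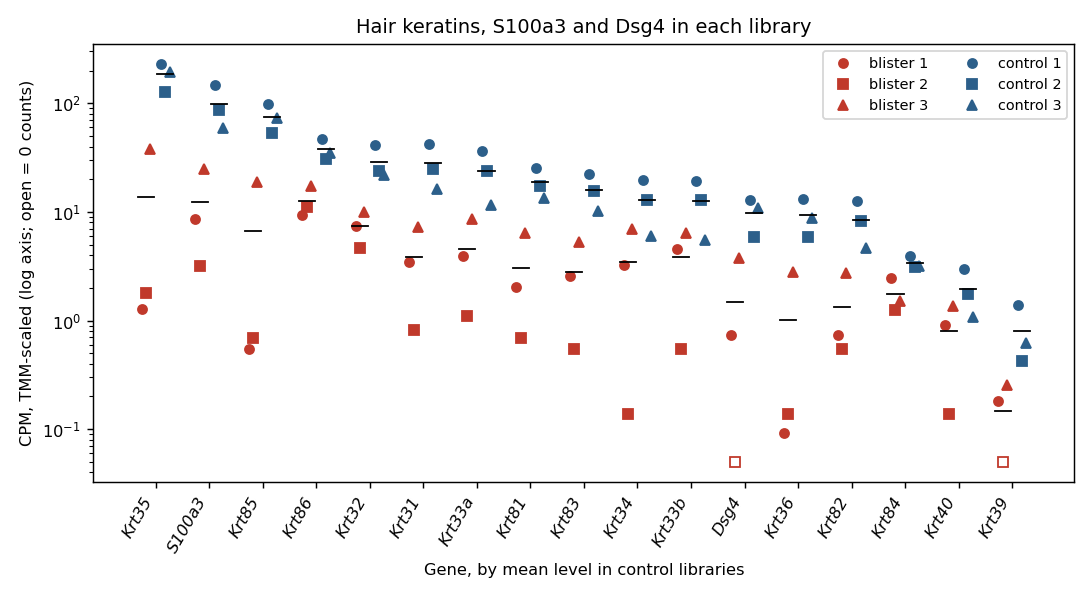
CPM of the 15 hair keratins, S100a3 and Dsg4 in each library on a log axis, ordered by mean control level; red marks are blister libraries, blue marks control libraries, bars the group means, and open marks 0 counts. Krt35 runs from 1.29 to 37.9 CPM in blister and from 127 to 230 CPM in control, while Krt33b, Krt34 and Krt40 have blister and control marks that overlap.

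The cortex keratins, which fill the bulk of the shaft, had smaller log2 fold changes than the first pair, a difference that was not tested. Krt86, a type II cortex keratin, was at 9.36, 11.2 and 17.2 CPM in blister against 47.3, 31.0 and 35.04 CPM in control. Its log2 fold change of -1.58 ± 0.26 (SE; adjusted p = 0.011, edgeR) had the smallest SE of the keratins. Krt81 and Krt83, its type II neighbours, had log2 fold changes of -2.57 ± 0.63 and -2.46 ± 0.61 (SE; adjusted p = 0.030 and 0.031, edgeR). In both genes all blister libraries lay below all controls: Krt81 was at 2.02, 0.688 and 6.37 against 25.6, 17.2 and 13.4 CPM, and Krt83 at 2.57, 0.551 and 5.26 against 22.4, 15.5 and 10.2 CPM.

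Type I cortex keratins split into those that passed the test and those that did not. Krt31 was at 3.49, 0.826 and 7.22 CPM in blister, against 42.6, 24.9 and 16.2 CPM in control (log2 fold change -2.80 ± 0.63, SE; adjusted p = 0.023, edgeR). Krt33a was at 3.95, 1.10 and 8.58 against 36.3, 23.9 and 11.7 CPM (-2.35 ± 0.65, SE; adjusted p = 0.041, edgeR), and Krt36 at 0.0918, 0.138 and 2.80 against 13.2, 5.88 and 8.76 CPM (-3.08 ± 0.91, SE; adjusted p = 0.049, edgeR). The groups did not overlap in any of the 3. Krt33b was at 4.59, 0.551 and 6.45 against 19.4, 12.95 and 5.46 CPM, and Krt34 at 3.21, 0.138 and 6.96 against 19.6, 12.8 and 6.03 CPM. In Krt33b and Krt34 blister 3 lay above control 3, and their adjusted p-values were 0.13 and 0.14 (edgeR). Over 20% of the 50-base windows of Krt31, Krt33a, Krt33b, Krt34, Krt81, Krt83 and Krt86 transcripts occur in another gene, up to 43.5% in Krt81, so reads could be split among them and their single values are uncertain.

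Cuticle keratins, of the overlapping scales on the shaft surface, differed in level and result. Krt32 was at 7.34, 4.68 and 10.0 CPM in blister against 41.2, 23.9 and 22.1 CPM in control, a log2 fold change of -1.96 ± 0.34 (SE; adjusted p = 0.012, edgeR). Krt82, the type II cuticle keratin, was at 0.734, 0.551 and 2.72 against 12.5, 8.26 and 4.61 CPM (-2.59 ± 0.62, SE; adjusted p = 0.027, edgeR). In both genes the groups were apart. The late keratin Krt40 was low and overlapping, at 0.918, 0.138 and 1.36 against 2.99, 1.75 and 1.08 CPM (adjusted p = 0.21, edgeR). Krt39, another late keratin, was too low to test, at 0.184, 0 and 0.255 CPM in blister and 1.38, 0.420 and 0.626 CPM in control. Krt84, a keratin best known from the tongue, was at 2.48, 1.24 and 1.53 against 3.91, 3.08 and 3.19 CPM, and its log2 fold change of -0.93 ± 0.33 (SE) did not pass (adjusted p = 0.078, edgeR), though its libraries did not overlap.

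S100a3, a calcium-binding protein of the cuticle, fell as well. It was at 8.54, 3.17 and 25.05 CPM in blister, against 148, 87.1 and 59.0 CPM in control. The groups did not overlap, and the log2 fold change was -2.96 ± 0.65 (SE; adjusted p = 0.022, edgeR). Dsg4, the desmosomal cadherin that joins shaft cells, was at 0.734, 0 and 3.74 CPM against 12.9, 5.88 and 10.8 CPM. Its libraries were also apart, but its log2 fold change of -2.62 ± 0.87 (SE) did not pass (adjusted p = 0.068, edgeR).

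Most Krtap genes were expressed, but few were abundant. Of the 52, 48 had a count in at least 1 library and 41 had at least 10 counts over the 6 libraries. Krtap13, Krtap20-2, Krtap31-1 and Krtap31-2 had 0 counts among 74082988, which allows a level of up to 0.0405 CPM for each (3 counts; counting error only). Krtap19-1, Krtap27-1, Krtap4-13 and Krtap5-1 had 0 counts in blister and 1, 4, 3 and 3 in control. The limit for 0 counts over the blister libraries was 0.0911 CPM. Both limits are relative to total counts without TMM adjustment. On the adjusted scale the blister limit would be somewhat higher, since the TMM factors there were 0.841 to 0.957. Transcript windows that occur in another gene made up 24.9% of Krtap13, 39.5% of Krtap31-1, 41.5% of Krtap31-2, 81.3% of Krtap4-13 and 60.6% of Krtap5-1. For Krtap20-2, Krtap19-1 and Krtap27-1 the share was 4.12%, 16.8% and 0%. How reads matching several genes were treated is not given, so such reads may be missing from these counts. Where windows are shared, the level may therefore lie above these limits.

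The number detected was lowest in blister 2. At least 1 count was seen for 42, 19 and 42 Krtap genes in blister 1, 2 and 3, and for 43, 46 and 43 in control 1, 2 and 3. Scaled to the depth of the smallest library, the expected numbers were 38.7, 19.0 and 41.8 in blister and 42.7, 44.5 and 41.5 in control, so blister 2 remained the lowest. At least 10 counts were seen for 20, 0 and 32 Krtap genes in blister and for 38, 40 and 31 in control. Blister 2 thus held no Krtap gene with 10 counts, while blister 3 held about as many as control 3.

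Per length of transcript the best expressed Krtap genes stood among the keratins. Krt85, at a mean of 75.0 CPM in control, matched no transcript by symbol and so has no value here. Each length is that of the gene's longest annotated transcript. For S100a3 this is 3143 bases, so its value would be higher if a shorter transcript was the one expressed. In control, Krt35 averaged 76.9 ± 21.9 CPM per kilobase (SD, n = 3), S100a3 31.2 ± 14.5, Krtap8-1 30.7 ± 12.9, Krtap17-1 26.0 ± 6.39, Krtap7-1 24.4 ± 13.2, Krt86 19.3 ± 4.33 and Krt31 17.7 ± 8.50. From S100a3 to Krt31, neighbours in this order differed by less than the larger of their SDs.

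Krtap11-1 and Krtap17-1, each the single member of its family, were the Krtap genes that fell in blister. Krtap11-1, a high-sulfur protein of the cortex, was at 1.84, 0.138 and 4.16 CPM against 24.3, 13.4 and 9.67 CPM (log2 fold change -2.86 ± 0.73, SE; adjusted p = 0.033, edgeR). Krtap17-1, which is rich in cysteine, was at 3.67, 1.10 and 6.11 CPM against 25.2, 16.0 and 18.1 CPM (-2.40 ± 0.49, SE; adjusted p = 0.018, edgeR). All controls stood above all blister libraries in both. No 50-base window of either transcript occurs in another gene. Without blister 1 the adjusted p-values were 0.11 and 0.068.

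Other families had lower means in blister but did not pass. Krtap8-1, a small glycine-tyrosine protein, was at 5.97, 0.138 and 8.24 CPM in blister, against 24.0, 19.3 and 9.50 CPM in control (log2 fold change -1.83 ± 0.80, SE; adjusted p = 0.13, edgeR). Krtap7-1 was at 4.59, 0.551 and 7.39 against 20.8, 18.9 and 5.75 CPM (-1.81 ± 0.74, SE; adjusted p = 0.12, edgeR). In Krtap7-1 control 3 lay below blister 3; in Krtap8-1 it stayed just above. Krtap13-1 was at 1.29, 0.551 and 3.06 against 13.7, 8.61 and 2.62 CPM (-2.28 ± 0.72, SE; adjusted p = 0.060, edgeR), again with control 3 below blister 3. It was called without blister 3 and without control 3.

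Families with several members are given by their sums. The 3 Krtap3 genes, high-sulfur proteins, summed to 9.27, 0.826 and 12.1 CPM in blister and 32.4, 21.7 and 13.4 CPM in control, and in each of the 3 the groups did not overlap, with none called. Krtap1 had 2 of 3 genes without overlap and sums of 3.03, 0 and 6.71 against 21.3, 14.8 and 6.48 CPM. The 8 Krtap4 genes, ultra-high-sulfur proteins, had 0 without overlap and sums of 2.57, 0.964 and 11.1 against 26.2, 16.9 and 7.96 CPM. For Krtap4, as for Krtap1, blister 3 was above control 3 in the sum. The 3 Krtap9 genes summed to 1.01, 0 and 3.65 against 8.29, 5.39 and 1.82 CPM, and the 3 Krtap6 genes to 0.734, 0.275 and 1.95 against 2.99, 6.30 and 1.31 CPM.

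Single members of these families varied around their sums. Krtap3-1 was at 3.58, 0.413 and 3.99 CPM in blister, against 14.3, 9.10 and 4.21 CPM in control, and Krtap3-3 at 4.59, 0.275 and 6.11 against 13.5, 9.94 and 6.37 CPM. In both, the lowest control stood just above the highest blister library. Krtap1-3, an ultra-high-sulfur gene, was at 0.826, 0 and 1.36 against 7.60, 3.85 and 2.16 CPM, with a log2 fold change of -2.51 ± 0.79 (SE; adjusted p = 0.059, edgeR). Krtap1-5 was at 1.01, 0 and 2.97 against 4.68, 6.02 and 1.65 CPM (-1.53 ± 0.88, SE; adjusted p = 0.24, edgeR), and here control 2 was the highest library. In the Krtap4 family the 7 tested genes had log2 fold changes from -2.06 to -1.38, with adjusted p-values from 0.099 for Krtap4-6 to 0.26 for Krtap4-9 (edgeR). Krtap4-16, the family's leading gene, was at 0.459, 0 and 2.12 against 5.98, 3.92 and 1.88 CPM.

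The glycine-tyrosine genes of families 16, 19, 21 and 22 were low in every library. The 5 Krtap19 genes together had 4, 0 and 19 counts in the blister libraries, against 10, 48 and 8 in the controls. Krtap16-3 was at 0.0918, 0 and 0.509 CPM against 0.767, 2.31 and 0.228 CPM, and Krtap22-2 at 1.19, 0 and 1.53 against 1.53, 3.57 and 0.796 CPM. Control 2 was the highest library in each, and blister 3 lay above control 3. In Krtap24-1, a high-sulfur gene, the groups did not overlap (0.459, 0.138 and 1.19 against 3.07, 2.45 and 1.36 CPM). Krtap26-1, at 1.56, 0.138 and 1.95 against 6.52, 4.13 and 1.65 CPM, had control 3 below blister 3.

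In the other families the member with the highest mean level was taken. Log2 fold changes were -2.11 for Krtap1-4, -1.39 for Krtap3-3, -2.06 for Krtap4-16, -1.84 for Krtap9-3, -1.82 for Krtap24-1, -1.66 for Krtap26-1, -1.35 for Krtap14, -1.22 for Krtap15 and -1.003 for Krtap22-2, with adjusted p-values from 0.069 to 0.41 (edgeR). None of these passed. Krtap2-4, Krtap6-5, Krtap16-3, Krtap19-3 and Krtap21-1 led families whose leading member was below the filter, at mean levels of 2.21, 1.32, 1.10, 0.637 and 0.813 CPM in control and 0.384, 0.399, 0.2004, 0.226 and 0.288 CPM in blister. In these genes control 2 or control 1 was the highest library.

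Families on chromosomes 7 and 10 differed least. The Krtap5 genes, on chromosome 7, summed to 4.13, 0 and 6.79 CPM in blister and 7.60, 5.81 and 3.19 CPM in control, and blister 3 was above control 2 and 3. Their leading member, Krtap5-2, had a log2 fold change of -0.68 ± 0.82 (SE; adjusted p = 0.57, edgeR). On chromosome 10, Krtap10-10 had -0.88 ± 0.60 (SE; adjusted p = 0.31, edgeR) and Krtap12-1 -0.40 ± 0.47 (SE; adjusted p = 0.56, edgeR). By chromosome the median log2 fold change of the tested genes was -0.55 on chromosome 7 (3 genes), -0.88 on chromosome 10 (3 genes), -1.66 on chromosome 11 (16 genes) and -1.81 on chromosome 16 (10 genes). The difference between chromosomes was not tested. Krtap10-10, Krtap10-4, Krtap5-2 and Krtap5-5 share 28.6% to 44.4% of their 50-base windows with other genes, so their counts are uncertain.

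**Figure D3:**
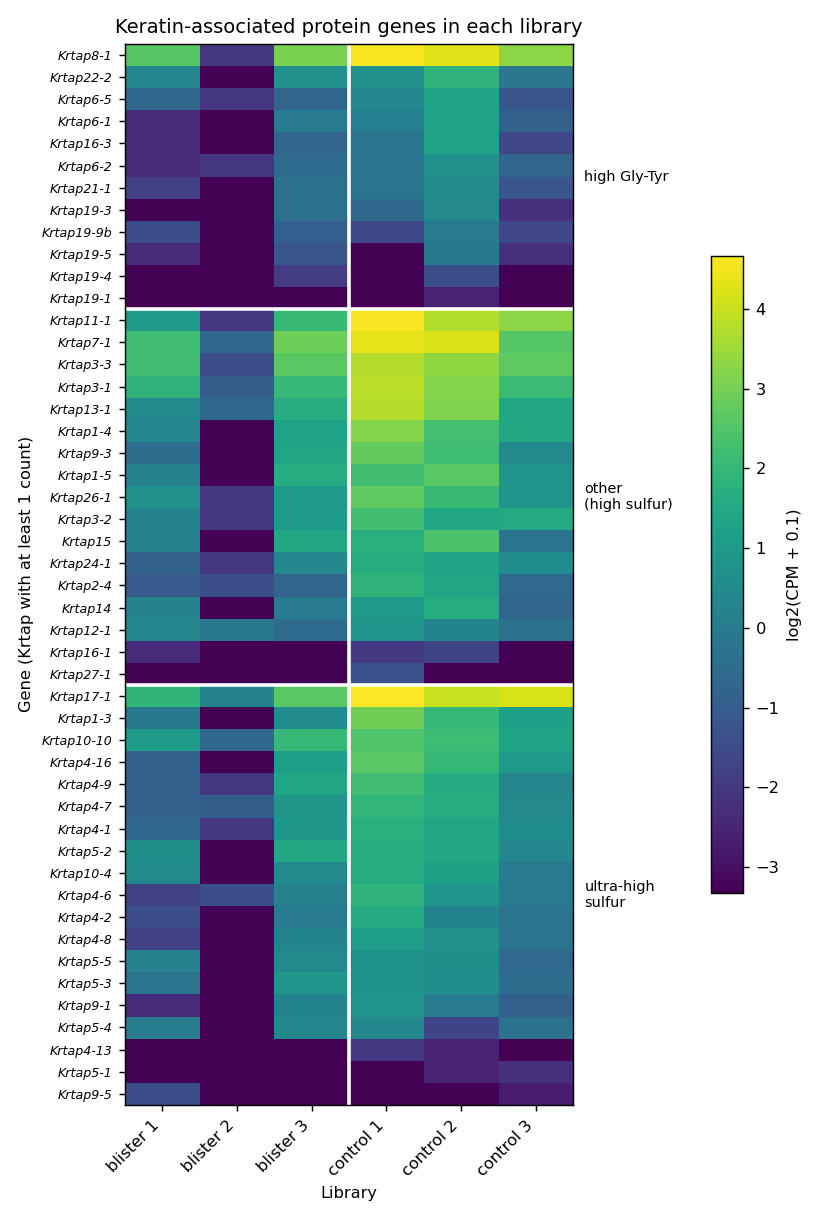
Level of the 48 Krtap genes with a count, in log2 of CPM plus a small constant, by gene (rows, grouped by protein class) and library (columns). Blister 2 is the darkest column, blister 3 resembles control 3, and most glycine-tyrosine genes are brightest in control 2.

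By protein class the sums were similar in size of difference. The 19 ultra-high-sulfur genes were at 14.8, 2.61 and 31.8 CPM in blister and 76.7, 50.2 and 35.2 CPM in control, 3.30-fold lower. The 13 glycine-tyrosine genes were at 8.54, 0.413 and 14.5 against 30.8, 36.2 and 12.6 CPM, 3.40-fold lower. The 20 other genes were at 25.6, 3.44 and 42.3 against 131.9, 96.6 and 42.6 CPM, 3.801-fold lower. For ultra-high-sulfur and other genes control 3 lay just above blister 3, and for glycine-tyrosine genes it lay below. Control libraries also differed among themselves by class: control 2 was the highest control in 11 of 12 glycine-tyrosine genes with a count, in 4 of the 36 other Krtap genes and in 0 of 15 keratins. This pattern was noticed after the values were seen and was not tested.

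Libraries kept nearly the same order from gene to gene. Of the 48 tested genes, 34 passed the low-count filter through the control libraries and not through the blister libraries, so these counts are a description. Among the 48, control 1 was the highest control in 43 and control 3 the lowest control in 40. Blister 3 was the highest blister library in 44 and blister 2 the lowest in 42, with no count in 17. Blister 1 and 2 lay below every control in 40, while blister 3 lay above control 3 in 25. The overlap of the groups therefore came in the main from blister 3 and control 3. Leaving out both left 33 of 53 tested genes called, in a fit with 2 libraries a group and 2939 calls over all genes. Since the groups overlapped in these libraries, a rise in calls follows from leaving them out, and the number is a description.

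The make-up of hair shaft RNA differed as well as its amount. Krt35 and Krt85 made up 1.82%, 7.32% and 22.6% of reads on the 69 genes in blister 1, 2 and 3 (95% Wilson intervals 1.18 to 2.79, 4.68 to 11.3 and 21.1 to 24.1), and 32.3%, 28.3% and 47.3% in control 1, 2 and 3 (31.5 to 33.1, 27.4 to 29.2 and 46.3 to 48.2). The blister shares all lay below the control shares. Over the other 13 keratins the pair stood at 0.0448, 0.114 and 0.738 in blister and at 1.14, 0.993 and 1.93 in control. The pair was thus down more than the sum of the other 13 in each blister library against each control. Neither ratio was tested. The intervals cover counting error only, since reads are not independent molecules.

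Krtap genes took 48.5%, 19.1% and 35.3% of these reads in blister and 23.5%, 28.7% and 16.0% in control, which overlap. Over the keratins other than Krt35 and Krt85, Krtap genes stood at 1.20, 0.297 and 1.15 in blister and 0.830, 1.01 and 0.654 in control. The Krtap genes thus kept no fixed ratio to the keratins other than Krt35 and Krt85, and blister 2 had the lowest value.

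**Figure D4:**
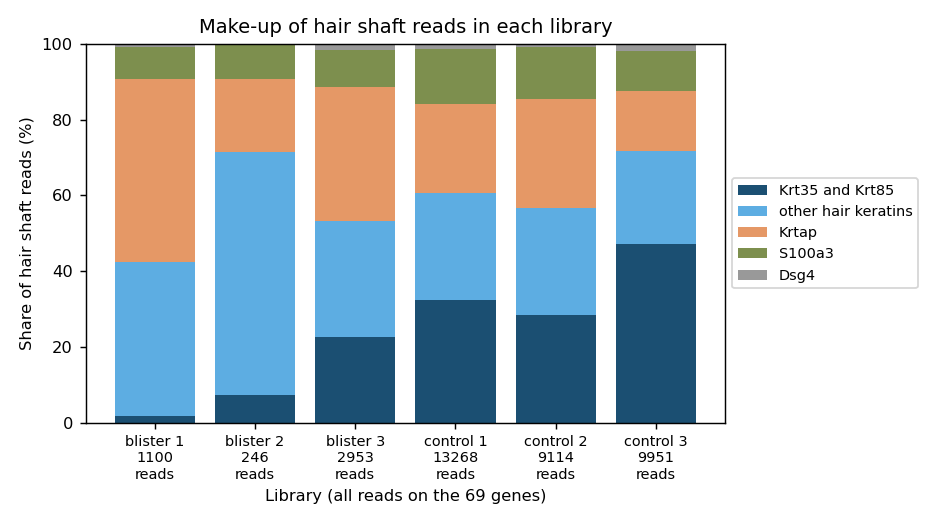
Share of reads on the 69 hair shaft genes (%) taken by Krt35 with Krt85, the other hair keratins, Krtap genes, S100a3 and Dsg4 in each of the 6 libraries, with the number of reads under each bar. Krt35 with Krt85 take 1.82% to 22.6% in blister and 28.3% to 47.3% in control.

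In the fit without the low-count filter, the median over the 65 genes with a count was -1.70 on the log2 scale, and Krtap9-5 and Krtap5-4 lay above 0. Neither was called, and Krtap9-5 had 3 counts in blister 1 and 1 in control 3.

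**Figure D5:**
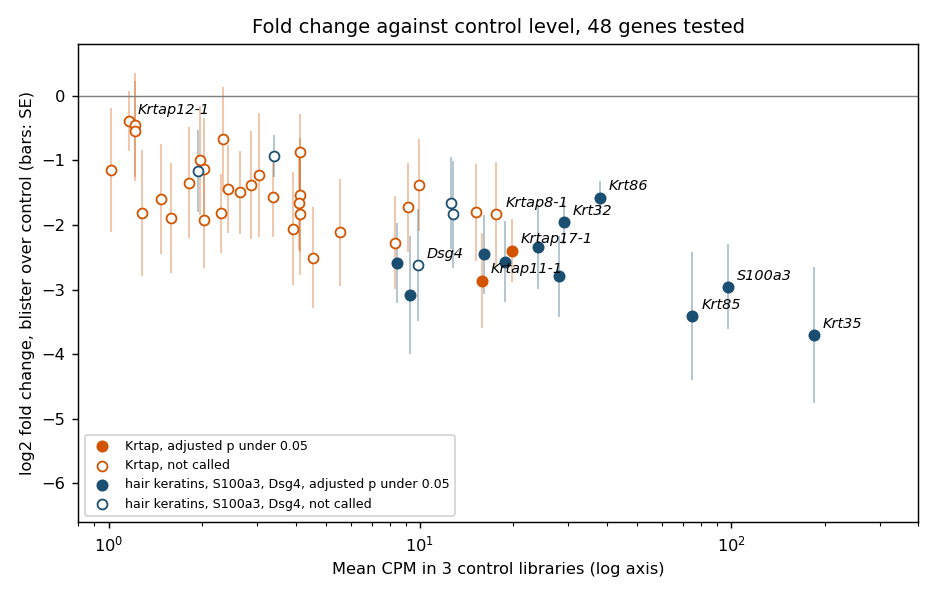
Log2 fold change, blister over control, with SE bars, against mean CPM in the 3 control libraries (log axis) for the 48 tested genes; filled points have an adjusted p under 0.05. All 48 points lie below 0, from -0.40 for Krtap12-1 to -3.70 for Krt35. Of the 48, 34 passed the low-count filter through the control libraries and not through the blister libraries, which favours points below 0.

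Several regulators of the hair shaft fell too, where 11.6% of all genes tested fell and 9.74% rose. Of 12 tested from a list of 13, 7 fell and 0 rose: Hoxc13, the homeobox factor that switches on hair keratins, the homeobox factors Msx2, Dlx2, Dlx3 and Cux1, the Wnt mediator Lef1 and the receptor gene Gprc5d. Lef1 was at 21.0, 16.2 and 16.8 CPM in blister, against 53.6, 39.2 and 52.7 CPM in control (log2 fold change -1.43 ± 0.17, SE; adjusted p = 0.0066, edgeR), and Dlx2 at 1.47, 2.07 and 3.14 against 9.59, 11.0 and 10.6 CPM (-2.21 ± 0.30, SE; adjusted p = 0.0074, edgeR). In both genes the groups were apart. Foxn1, Msx1, Foxq1, Runx1 and Bmpr1a did not pass. The number that fell was from 4 to 8 when 1 library was left out, the lowest without blister 1.

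Genes that modify or join shaft proteins went both ways, where 11.6% of all genes tested fell and 9.74% rose. Of 12 tested, 3 fell: Padi3, which citrullinates S100A3, Tchh, the trichohyalin of the inner sheath, and Crym. The 5 that rose, Jup, Dsc2, Dsc3, Pkp1 and Dsp, are desmosome genes that the whole epidermis uses. Dsc3 was at 1604, 1176 and 1525 CPM in blister against 717, 708 and 689 CPM in control (log2 fold change 1.03 ± 0.15, SE; adjusted p = 0.0084, edgeR). Dsc2 was at 39.9, 30.3 and 47.4 against 18.1, 14.2 and 13.1 CPM (1.38 ± 0.21, SE; adjusted p = 0.0086, edgeR). Padi1, Tgm1, Tgm3 and Tgm5 did not pass. Without blister 1 or without control 1, 0 of the list fell and 2 rose; also 2 rose without control 2 or control 3, and 3 without blister 3. With scaling by library size alone, or without blister 3 and control 3 together, 2 rose as well.

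Markers of neighbouring cells moved in the same libraries, where 11.6% of all genes tested fell and 9.74% rose. Tchh, of the inner root sheath list, and Msx2, of the matrix list, were already counted in the lists above. Of the inner root sheath and companion layer list, 9 of 11 fell, and the list summed to between 261 and 1175 CPM in blister and between 2993 and 5544 CPM in control. It held 0 called without blister 1, 0 without control 1, 1 without control 2, and 3 without blister 2 or without control 3. Dermal papilla markers, of the mesenchyme that instructs the follicle, fell in 8 of 10 (6.06 to 30.6 against 151 to 245 CPM), matrix and placode markers in 7 of 8 with 1 higher (278 to 428 against 684 to 858 CPM), and melanocyte markers in 6 of 8 (354 to 576 against 893 to 1073 CPM). Of outer root sheath and upper follicle markers 3 of 7 fell (8266 to 9234 against 7698 to 10106 CPM). Of interfollicular markers 1 fell (Lor) and 3 rose (Krt5, Krt14 and Krtdap) among 6.

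Dermal fibroblast markers fell in 6 of 11, against 11.6% of all genes tested. Their sums were 155, 949 and 244 CPM in blister and 1026, 1299 and 7324 CPM in control, control 3 being the highest. Without 1 library the numbers that fell were from 7 to 8 for dermal papilla, 4 to 7 for matrix and placode, 2 to 7 for melanocyte, 1 to 3 for outer root sheath and 3 to 6 for fibroblast markers, each lowest without blister 1 or without control 1. For interfollicular markers 0 to 1 fell and 1 to 3 rose. None of the markers in these lists was at 0 in every library. The part of these cells in the hair shaft result was not tested.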

How the data were processed

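Counts per gene were deposited by the authors as 1 table of symbols and whole numbers for each of 6 libraries. The submitters' processing notes name HISAT2 2.0.0, featureCounts and the builds NCBIM37 and mm9. How strand and reads matching several genes were treated is not given there.

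Genes were kept by filterByExpr (minimum count 10, minimum total 15), scaled by TMM and tested with edgeR 4.0.16 in R 4.3.3 by quasi-likelihood F-test with the group as the single term, two-sided, with Benjamini-Hochberg adjustment over 14028 genes and a threshold of 0.05. CPM are counts over library size times TMM factor; SE is of the log2 fold change. The procedure was tested on simulated data. Alternatives were other scalings, no filter, a filter of 5 CPM in 3 libraries, a replicate block, DESeq2 1.42.0 and leaving out libraries. Plots were drawn with matplotlib 3.10.9.

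The members and lists were chosen with earlier results of these data known. Named were all keratins, S100a3, Dsg4, the leading member of each Krtap family with at least 10 counts, called Krtap genes, and from the lists of regulators and of modifying and joining genes every tested member, with values for the 2 of smallest p. Krtap classes were computed from coding sequences in GENCODE M21 (GRCm38): ultra-high sulfur at 30% cysteine or more, then glycine-tyrosine at 35% or more, then the rest. The plan took glycine-tyrosine first, which would have moved Krtap5-2 and Krtap5-3. Krtap7-1, at 29.9% glycine and tyrosine, is in the rest. Transcript lengths and shared windows are from GENCODE M21, promoters from RefSeq, all matched by symbol.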

Additional observations from a re-analysis of the deposited data

How the results depend on the processing

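The direction of all 48 tested genes was the same under scaling by library size alone, by median of ratios or by upper quartile and with the replicate block, as was that of the 19 tested under the stricter filter, while leaving out blister 2 put Krtap5-3, among the 48, above 0 without a call. Of the 48, 34 passed the low-count filter through the control libraries and not through the blister libraries, which favours lower values in blister. None of the 69 was called higher under any alternative run. The number of the 69 genes that fell was 13 under median-of-ratios, upper-quartile and the stricter filter, 15 without a filter, 16 with DESeq2 (11 of the 13 among them, without Krt36 and Krt85) and 17 with library size alone, which moved the median of all genes to -0.25 on the log2 scale. Leaving out 1 library gave from 2 to 26, with 785 to 4061 called over all genes. Leaving out blister 3 and control 3 together, where the groups overlapped most, gave 33 of 53 tested, with 2939 called over all genes. With the replicate number as a block 8 fell, and 2 of the modifying and joining genes rose instead of 5. Deviations of same-numbered libraries from their group means correlated at 0.212, -0.259 and 0.0107. With 3 libraries a group these values cannot settle whether the numbers pair the libraries, and the labels do not say. Counting genes at 10 counts instead of 1 lowered the mean number detected of the 69 to 28.0 in blister and 53.0 in control. In blister 2 no Krtap gene reached 10 counts, so single Krtap values there rest on few reads.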
